A study of Mus musculus with 6 samples.

Results

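The genes described here are 9 genes of primitive erythroid cells, the first red blood cells of the embryo: the globins Hbb-bh1, Hbb-y, Hba-x, Hba-a1 and Hba-a2, the haem enzyme gene Alas2, the transcription factors Klf1 and Gata1, and the erythropoietin receptor gene Epor. They were taken by gene symbol from all 6 deposited tables, and 9 of 9 were found among 30631 listed genes. They were selected on their measured levels in these 6 libraries, to show which libraries hold erythroid cells, so those levels are given as a description without a test. The starting cells were clones of mouse embryonic stem cells grown over a layer of embryonic fibroblasts from mice. They were aggregated in hanging drops, and at stage 7+1 days the cells with the surface protein CD166 were sorted. Each library was made from 500 ng of total RNA and is meant to represent sinoatrial node-like cardiomyocytes, the pacemaker cells of the heart. There are 3 libraries labelled wild type (Shox2+/+) and 3 labelled Shox2-/-, here called knockout. The titles of the knockout libraries share 1 prefix and those of the wild-type libraries carry 3, so the effects of genotype and of clone cannot be told apart. No label states that the samples of a group were separate cultures, so the spread between them may be technical in part.

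Primitive red cells arise in the yolk sac beside the first blood vessels, and stem cells that differentiate in aggregates make them as well. Haemoglobin is built from alpha-like and beta-like globin chains. The embryonic forms are zeta globin (Hba-x) on the alpha side, and beta-H1 (Hbb-bh1) and epsilon-y (Hbb-y) on the beta side. As primitive erythroblasts mature, beta-H1 gives way to epsilon-y and zeta to the alpha globins of Hba-a1 and Hba-a2, while Hbb-bs and Hbb-bt encode the adult beta chains. Alas2 makes the first enzyme of haem synthesis in red cells. Gata1 and Klf1 are transcription factors that bind GATA and CACCC elements in many red cell promoters, and Epor receives the survival signal erythropoietin.

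The globin members lie in 2 clusters. On mm10, Hbb-bh1 (chr7:103841637-103843164) and Hbb-y (chr7:103851749-103853216) lie on the minus strand, and Hba-x (chr11:32276400-32278116), Hba-a1 (chr11:32283511-32284465) and Hba-a2 (chr11:32296489-32297298) lie on the plus strand. Alas2 (chrX:150547375-150570638, plus strand) and Gata1 (chrX:7959260-7978071, minus strand) are X-linked. Klf1 is at chr8:84901928-84905291 (plus strand) and Epor at chr9:21958897-21963506 (minus strand). All gene-level values cover the whole gene and cannot be divided between exons and untranslated regions. Of the 9 members, Alas2 shares exon bases with another gene: 311 of its 2403 exon bases are also annotated to Apex2 on the opposite strand, and whether strand was used in counting is not stated. Hba-a1 and Hba-a2 are near-identical copies, since 72.3% of the 50-base words in Hba-a1 transcripts also occur in those of Hba-a2 and 89.3% of those in Hba-a2 occur in Hba-a1, so the division of reads between these copies is uncertain.

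Promoter sequences are shown for members that were high and low in the same libraries (Hbb-y, Hba-a2, and a short stretch of Hba-x) and for Epor, whose level followed them least. They come from RefSeq on GRCm38.p6, which matched 8 of the 9 members. Each line gives the 200 bases before the RefSeq start, on the strand of the gene, except for Hba-x, which is given from base -112 to base -83. The RefSeq starts differ from those of the GENCODE positions above: they lie 200 bases downstream for Hba-x, 9 for Hbb-y and 3 for Hba-a2, and for Epor 70 bases upstream (offset -70). The Hba-x stretch therefore lies inside the gene as GENCODE draws it. Capitals mark 4 motifs searched on both strands. The first is GATAA, the core that Gata1 is known to bind, which reads TTATC on the opposite strand. The second is CACCC, the core of the element known to be bound by Klf1 and its relatives. The other two, common to many promoters, are CCAAT and, nearest to the start of the gene, the TATA box with the letters TATAA. The second and the third can share bases.
Hbb-y, chr7:103853208-103853407, minus strand: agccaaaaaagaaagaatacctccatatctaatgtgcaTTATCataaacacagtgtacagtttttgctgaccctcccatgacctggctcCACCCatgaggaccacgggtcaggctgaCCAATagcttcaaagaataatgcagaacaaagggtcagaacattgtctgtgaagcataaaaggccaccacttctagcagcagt
Hba-a2, chr11:32296292-32296491, plus strand: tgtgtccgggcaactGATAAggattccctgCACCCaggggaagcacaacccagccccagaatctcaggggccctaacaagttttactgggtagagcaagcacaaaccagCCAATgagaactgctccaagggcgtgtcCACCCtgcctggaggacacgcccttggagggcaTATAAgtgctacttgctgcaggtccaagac
Hba-x, chr11:32276488-32276517, plus strand: gctctGATAAcaggctcCACCCtgcaagcc
Epor, chr9:21963577-21963776, minus strand: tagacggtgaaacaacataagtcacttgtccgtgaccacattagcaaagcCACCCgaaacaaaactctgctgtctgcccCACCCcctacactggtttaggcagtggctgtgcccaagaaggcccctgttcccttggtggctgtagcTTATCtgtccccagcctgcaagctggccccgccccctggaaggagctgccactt

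The letters GATAA stood in 7 and CACCC in 8 of the 8 member promoters found, against 18.1% and 45.5% of 32851 RefSeq promoter windows of the same length. CCAAT stood in 4 and TATAA in 3 of the 8, against 29.3% and 18.5% of all windows. Among other red cell genes, from the lists described below, GATAA stood in 1 of 5 promoters at the globin loci. It stood in 3 of 12 for haem and iron, 2 of 13 for transcription factors and 4 of 11 for the membrane. For enzymes and erythropoietin signalling it stood in 4 of 14 and 2 of 10. CACCC stood in 2, 6, 9, 8, 6 and 3 of these promoters, in the same order. The promoter of Hba-a1 is identical to that of Hba-a2 over the 297 bases that both entries hold, so the same sequence is counted for both. The RefSeq start of Gata1 lies 10161 bases downstream of its GENCODE start, so its window lies inside the gene as GENCODE draws it. Such matches describe the letters only, and no factor binding was measured in these samples.

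The libraries held 13504683 to 34650564 gene-assigned reads, recovered from the deposited normalized counts (reads divided by 1 scaling factor per library). Libraries 1 and 2 labelled wild type were the most alike of the 15 pairs, with 2.84% variation beyond counting error, where the others had 9.64% to 21.8%. They were kept as separate samples, as 15.9% of genes still differed beyond counting error, but this does not show that they were separate cultures. Shox2 reads were higher in the libraries labelled knockout, at 201, 548 and 373 normalized counts against 89.6, 83.4 and 31.4. The sources used here do not say which part of Shox2 the allele removes, so every direction is one between labels, and "wild-type library" and "knockout library" mean only a library with that label. Of 10 cardiomyocyte markers, 0 were at 0 in any of the 6 libraries. Few tested genes were, with 0 to 52 of 17034 at 0 per library, so this does not measure the share of cardiomyocytes. Ttn, the giant sarcomere protein titin, ranged from 2982 in library 3 labelled wild type to 17592 in library 3 labelled knockout, and Alcam, the gene of the sorted CD166, ranged from 4177 to 6591.

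The embryonic globins differed by over 100-fold between libraries, and the lowest and nearly the highest levels carried the same label. Hbb-bh1, the early embryonic beta-like chain, was at 7441, 7150 and 60.45 normalized counts in wild-type libraries 1, 2 and 3 and at 1524, 9696 and 1231 in knockout libraries 1, 2 and 3. Hbb-y, the later embryonic beta-like chain, was at 7846, 7207 and 76.2 in the wild-type libraries and at 1305, 5803 and 1931 in the knockout libraries. Hba-x, the embryonic alpha-like chain, was at 2934, 3114 and 13.35 in the wild-type libraries and at 339, 2868 and 446 in the knockout libraries. For all 3 genes, libraries 1 and 2 labelled wild type and library 2 labelled knockout were high, libraries 1 and 3 labelled knockout were intermediate, and library 3 labelled wild type was lowest. The ranges of the labelled groups overlapped for each.

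The summed embryonic globins show the same order. They came to 18221, 17472 and 149.95 normalized counts in wild-type libraries 1 to 3 and to 3168, 18367 and 3608 in knockout libraries 1 to 3. The highest knockout library and the highest wild-type library differed by 1.01 times. Within the knockout label, library 2 was 5.80 times as high as library 1 and 5.09 times as high as library 3. Within the wild-type label, library 1 was 121.5 times as high as library 3. Even the lowest knockout library was 21.1 times as high as library 3 labelled wild type. In bulk samples fewer erythroid cells and less globin RNA per cell cannot be told apart.

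How precisely these levels were counted is given by the ratio of the highest library to the lowest, as a description of libraries chosen by their values. The 17 Hba-x reads of library 3 labelled wild type stand against 4778 in library 2 with that label, a ratio of 233 (95% exact interval 146 to 401). For Hbb-bh1, 77 reads there stand against 10848 in library 2 labelled knockout, a ratio of 160 (95% exact interval 128 to 203). For Hbb-y the ratio of library 1 to library 3 labelled wild type was 103 (95% exact interval 84.3 to 127). These intervals cover counting error only.

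**Figure D1:**
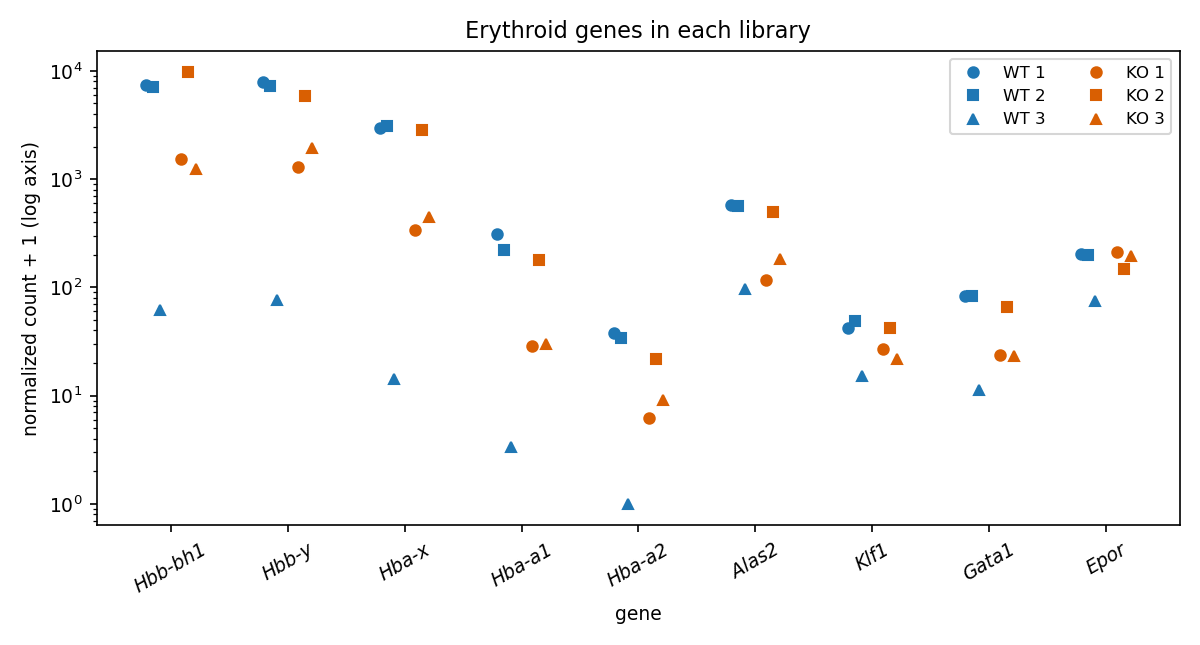
Normalized counts plus 1 (log axis) of the 9 genes in each library, 1 point per library, with blue for libraries labelled wild type (WT) and orange for those labelled knockout (KO). Library 3 labelled wild type (blue triangle) is lowest for all 9 genes, at 60.45 for Hbb-bh1, where library 2 labelled knockout (orange square) is at 9696.

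As counted, the alpha globin copies were far lower than Hba-x in every library and kept much the same order of libraries. Hba-a1 was at 309, 220 and 2.36 normalized counts in the wild-type libraries and at 27.7, 177 and 28.9 in the knockout libraries. The 2.36 stands for 3 reads, and the ratio of library 1 to library 3 labelled wild type was 131 (95% exact interval 44.2 to 641). Hba-a2 was at 36.5, 33.2 and 0 in the wild-type libraries and at 5.19, 20.6 and 8.15 in the knockout libraries. With 3 reads put in place of the 0, the value of library 1 labelled wild type was 15.5 times that of library 3 with that label. This is not a firm lower limit, as the 22 reads of library 1 carry counting error too (95% exact interval 22.9 to 55.3 normalized counts). The sum of the copies does not depend on how reads were divided between them. It came to 345, 254 and 2.36 normalized counts in the wild-type libraries and 32.9, 197.5 and 37.0 in the knockout libraries. How reads matching both copies were counted is not stated, and if they were left out, these sums are too low. These sums rest on 208, 389 and 3 reads and on 19, 221 and 50 reads.

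Alas2, Gata1 and Klf1 moved over a narrower range than the embryonic globins. Alas2 was at 581, 558 and 94.99 normalized counts in the wild-type libraries and at 116, 494 and 184 in the knockout libraries. Library 3 labelled wild type was lowest, with library 1 labelled knockout close above it. Beside this, Apex2, which shares exon bases with Alas2, stood at 744 to 848 in all 6 libraries, and its part in the Alas2 values was not tested. Alas2 amounted to 63.3 normalized counts per 100 of the summed embryonic globins in library 3 labelled wild type, against 2.69 to 5.09 in the other 5 libraries.

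Gata1, which marks red cells and also megakaryocytes, was at 81.3, 81.5 and 10.2 normalized counts in the wild-type libraries and at 22.5, 65.25 and 22.2 in the knockout libraries. The same 3 libraries were high as for the globins, but the highest library was 7.98 times the lowest (95% exact interval 4.50 to 15.4). Klf1, a factor with a role in adult beta globin transcription, was at 41.5, 48.2 and 14.1 in the wild-type libraries and at 25.95, 41.1 and 20.7 in the knockout libraries. Its highest value was 3.41 times its lowest (95% exact interval 2.02 to 6.07), on 15 to 74 reads. Low counts therefore limit both factors.

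Epor followed the others least. It was at 201, 196 and 73.8 normalized counts in the wild-type libraries and at 209, 147 and 192 in the knockout libraries. Its highest library was library 1 labelled knockout, where the globins were intermediate, and library 2 labelled knockout, with the highest Hbb-bh1, had the second lowest Epor. The highest value was 2.84 times the lowest (95% exact interval 2.15 to 3.75). Without library 3 labelled wild type, Epor lay between 147 and 209.

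Taking all members together, reads of the 9 genes made up 869, 824 and 14.7 of every 1000000 gene-assigned reads in the wild-type libraries (95% exact binomial intervals 853 to 885, 814 to 834 and 13.4 to 16.1). In the knockout libraries they made up 149.9, 825 and 176 of every 1000000 (144 to 157, 814 to 836 and 171 to 181). The 5 globins supplied 95.4%, 95.3% and 44.1% of those reads in the wild-type libraries and 89.5%, 96.1% and 89.7% in the knockout libraries. In library 3 labelled wild type, Alas2 and Epor alone gave 121 and 94 of the 440 reads.

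The labelled groups overlapped for every member. Group means were 4884 ± 4180 (SD, n = 3) against 4150 ± 4805 (SD, n = 3) normalized counts for Hbb-bh1 in wild type and knockout. For Hbb-y they were 5043 ± 4313 (SD, n = 3) against 3013 ± 2436 (SD, n = 3), and for Hba-x 2021 ± 1741 (SD, n = 3) against 1218 ± 1430 (SD, n = 3). For Alas2 they were 411 ± 274 (SD, n = 3) against 265 ± 202 (SD, n = 3). Of the 9 members, 0 had groups that did not overlap, and 23.6% of all 17034 genes tested had such groups. On the log2(value + 1) scale, the knockout minus wild-type difference was 0.83 (SE 1.84) for Hbb-bh1, 0.58 (SE 1.70) for Hbb-y, 0.58 (SE 2.03) for Hba-x and -0.20 (SE 1.69) for Hba-a1. It was -0.02 (SE 1.37) for Hba-a2, -0.52 (SE 0.79) for Alas2, -0.12 (SE 0.51) for Klf1, -0.36 (SE 0.83) for Gata1 and 0.34 (SE 0.40) for Epor.

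The signs of the 3 embryonic globins changed with single libraries, while that of Alas2 did not (-1.37 to -0.06 without any 1 library). Without library 3 labelled wild type the difference became -1.47 for Hbb-bh1, -1.62 for Hbb-y and -1.996 for Hba-x. Without library 2 labelled knockout it was -0.11 for Hbb-bh1, -0.04 for Hbb-y and -0.38 for Hba-x. Leaving out any of the other 4 libraries kept the sign and gave 1.22 to 1.99 for Hbb-bh1, 0.75 to 1.71 for Hbb-y and 0.96 to 1.89 for Hba-x. The titles of 3 libraries hold Diff9, a number whose meaning is not stated. Among these, library 3 labelled knockout minus the mean of libraries 1 and 2 labelled wild type gave log2 differences of -2.57 for Hbb-bh1, -1.96 for Hbb-y, -2.76 for Hba-x, -1.63 for Alas2 and -0.05 for Epor. In the other 3 libraries, the mean of libraries 1 and 2 labelled knockout minus library 3 labelled wild type gave 5.97, 5.16, 6.11, 1.33 and 1.24 for the same genes. With the title number as a block, the fit over all 6 libraries gave 1.70 for Hbb-bh1, 1.60 for Hbb-y, 1.67 for Hba-x, -0.15 for Alas2 and 0.60 for Epor. With libraries 1 and 2 labelled wild type averaged into 1, these differences were 1.97, 1.68, 1.86, -0.09 and 0.57. Those of Gata1 and Klf1 then changed sign, to 0.12 and 0.14.

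The make-up of the globin reads also differed between libraries of the same label. Hbb-bh1 took 48.7% and 49.8% of the Hbb-bh1 and Hbb-y reads in libraries 1 and 2 labelled wild type (95% exact intervals 47.7% to 49.7% and 49.1% to 50.5%). In libraries 1, 2 and 3 labelled knockout it took 53.9%, 62.6% and 38.9% (51.4% to 56.3%, 61.8% to 63.3% and 37.5% to 40.4%). Library 2 labelled knockout therefore had the highest and library 3 with that label the lowest share, and their intervals do not overlap those of any other library but library 3 labelled wild type, which overlaps the lower one. In library 3 labelled wild type 77 of 174 such reads gave 44.3% (36.7% to 52.0%). The early beta-like chain was thus in excess of the later one in libraries 1 and 2 labelled knockout, and the later one in excess in library 3.

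As counted, adult beta globin was a trace in all libraries. Hbb-bs and Hbb-bt, similar copies that are outside the members, together took 0.733%, 0.877% and 1.69% of the beta-like reads in the wild-type libraries and 0.183%, 0.965% and 0.164% in the knockout libraries. Of the 50-base words in their transcripts, 53.2% for Hbb-bs and 58.3% for Hbb-bt occur in the other copy. If reads matching both were left out of the counts, these shares are too low. The intervals of libraries 1 and 3 labelled knockout (0.0378% to 0.534% and 0.0658% to 0.337%) lay below those of libraries 1 and 2 labelled wild type and library 2 labelled knockout (0.570% to 0.928%, 0.759% to 1.01% and 0.826% to 1.12%). The 1.69% of library 3 labelled wild type rests on 3 of 177 reads (0.351% to 4.87%). Adult beta globin was thus a larger part of the beta-like reads where embryonic globin was high than in libraries 1 and 3 labelled knockout.

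On the alpha side, Hba-a1 and Hba-a2 took 10.5%, 7.53% and 15% of the alpha-like reads in the wild-type libraries and 8.84%, 6.44% and 7.67% in the knockout libraries. These shares are too low if reads matching both copies were left out of the counts. The share in library 1 labelled wild type (95% exact interval 9.21% to 12.0%) lay above that of its near twin, library 2 (6.82% to 8.28%). The interval of library 3 labelled wild type, 3.21% to 37.9% on 20 reads, allows any of the other values.

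**Figure D2:**
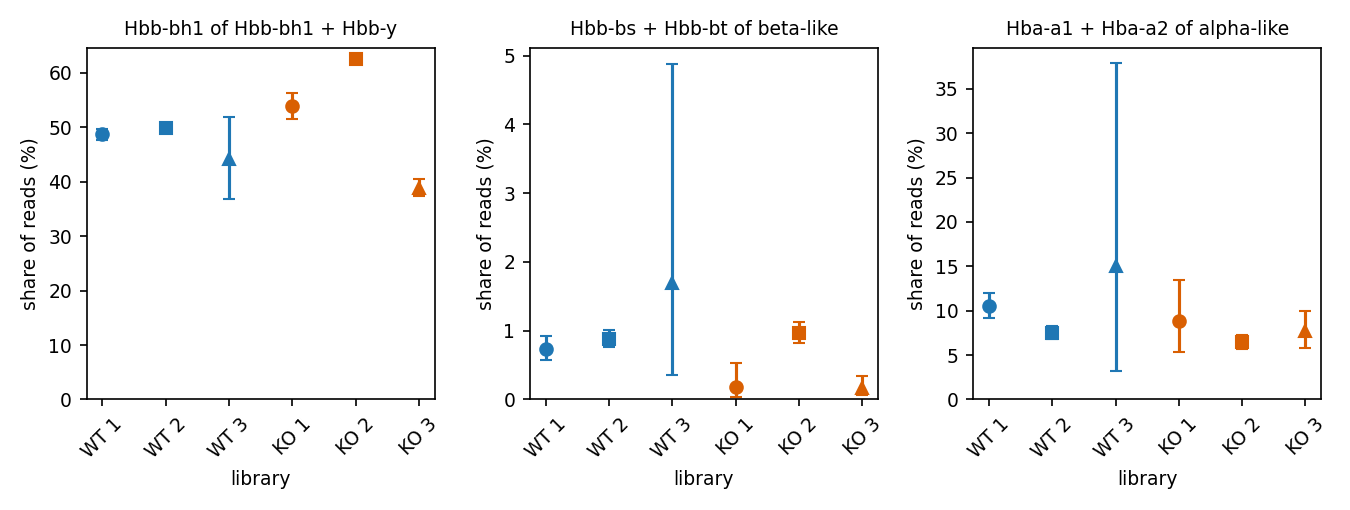
Share of reads (%) taken by Hbb-bh1 among Hbb-bh1 and Hbb-y, by Hbb-bs and Hbb-bt among beta-like globins, and by Hba-a1 and Hba-a2 among alpha-like globins, 1 point per library with its 95% exact binomial interval. The Hbb-bh1 share runs from 38.9% to 62.6%, with both ends in libraries labelled knockout (orange), and the wide bars of library 3 labelled wild type reflect its few globin reads.

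Levels of different members can be compared only per length, here as normalized counts per kilobase of annotated exons. Hbb-bh1 and Hbb-y took the first and second place in all 6 libraries, Hbb-bh1 the first in library 2 labelled wild type and in libraries 1 and 2 labelled knockout. Hba-x was the third in 5 of the 6 libraries, at 3128, 3320 and 14.2 per kilobase in the wild-type libraries and 362, 3058 and 475 in the knockout libraries. In library 3 labelled wild type Hba-x came the fifth, below Alas2 at 39.5 and Epor at 37.1 per kilobase. The summed beta-like globins were 6.93, 6.38 and 12.96 times the summed alpha-like globins per kilobase in the wild-type libraries and 11.3, 7.62 and 9.68 times in the knockout libraries. The 12.96 rests on 20 alpha-like reads. If reads matching both Hba-a1 and Hba-a2 were left out of the counts, the alpha-like sums are too low, so these ratios do not measure a balance of chains. In the 5 libraries other than library 3 labelled wild type, the last places went to Gata1, Klf1 and Hba-a2, whose order changed between libraries.

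Other genes of red cells were taken from 6 lists with 88 entries, of which 84 were in the files and 74 passed the filter on low values. In limma, 0 of the 74 had an adjusted p under 0.05, as did 0% of all genes, and the log2 difference was above 0 for 32 and below 0 for 42, with a median of -0.07 against 0.01 over all genes. At an unadjusted p under 0.05, 2 were higher and 5 lower (6.92% and 7.23% of all genes). The labelled groups did not overlap in 7 higher and 6 lower genes of the 74, where 12.8% and 10.8% of all genes did so. The lowest unadjusted p belonged to Bcl11a, a repressor of embryonic globin genes that is also active in neurons, chosen after its values were seen. It was at 519.5, 570 and 563 normalized counts in wild-type libraries 1 to 3 and at 223, 156 and 230 in knockout libraries 1 to 3, a log2 difference of -1.45 (SE 0.18; adjusted p = 0.118 in limma). All 3 knockout values lay below all wild-type values, an order that the globins did not share.

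The lists split by how far their members ranged. In the red cell membrane list, 4 of 17 tested genes spanned over 3 units of log2(value + 1) between their lowest and highest library, as did 3.59% of all genes, among them Slc4a1, Kel and Epb42, the last named after its values were seen. The most highly expressed genes of that list ranged less. Sptb, the red cell form of beta spectrin, a protein of the membrane skeleton, was at 599, 536 and 154 normalized counts in the wild-type libraries and at 206, 436 and 204 in the knockout libraries. It was high in the libraries with high globin and lowest in library 3 labelled wild type. Tmod1, a capping protein of actin filaments that heart muscle shares, and Epb41, protein 4.1, which is widely expressed, had log2 differences of 1.00 (SE 0.50) and 0.19 (SE 0.14).

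In the list of haem synthesis and iron supply, 0 of 16 genes spanned over 3 units of log2(value + 1), as Alas2 did not either, and the median span was 0.58 units against 0.71 for all genes. Steap3, an iron reductase named after its values were seen, ranged more widely than Alas2, with 107.6 normalized counts in library 3 labelled wild type and 13.3 to 20.2 in the other 5. Tfrc, the transferrin receptor, was at 10045, 10158 and 7529 normalized counts in the wild-type libraries and at 11993, 10512 and 10165 in the knockout libraries. Ireb2, an iron sensor, and the ferritin genes Fth1 and Ftl1 had log2 differences of 0.31 (SE 0.13), -0.16 (SE 0.16) and -0.12 (SE 0.19). Of these 4, 0 passed the adjusted threshold in limma. The ubiquitous counterpart of Alas2, Alas1, named outside the rule, lay between 1126 and 1389.

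Among red cell enzymes, 0 of 14 tested genes spanned over 3 such units. Prdx2, a peroxiredoxin abundant in red cells and elsewhere, lay between 6609 and 7875 normalized counts, Gpx1, a glutathione peroxidase, between 4246 and 5026, Bnip3l, a mitophagy receptor, between 2520 and 3235, and Cat, catalase, between 2343 and 3078. Genes of erythropoietin signalling likewise spanned over 3 units in 0 of 11 cases, with Jak2, the kinase bound to Epor, between 1791 and 2230, and Stat5b, a transcription factor downstream of it, between 936 and 1911. Kit, the receptor of stem cell factor, lay between 630 and 1380, with its lowest value in library 3 labelled wild type. Socs3, a feedback inhibitor, had a log2 difference of -0.88 (SE 0.29; adjusted p = 0.287 in limma).

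Of the red cell transcription factors, 2 of 15 spanned over 3 such units, Gfi1b and Ikzf1, named after their values were seen. The highest expressed factors were the cofactor Ldb1, at 3075 to 3953 normalized counts, Sox6, a repressor of embryonic globin with roles in muscle too, at 765 to 1806, and Zfpm1, the Gata1 partner FOG1, at 418 to 1258. Sox6 had a log2 difference of 0.66 (SE 0.21; adjusted p = 0.278 in limma) and non-overlapping groups. Runx1, a factor of blood emergence, was highest in library 3 labelled wild type, at 842 against 291 to 592 in the other 5 libraries, so it did not follow the globins. Tal1, a partner of Gata1 that endothelium shares and that was named after its values were seen, was at 169, 186 and 29.05 in the wild-type libraries and 65.7, 212 and 65.2 in the knockout libraries, the globin order again.

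Genes most like the embryonic globins were found by the root mean square difference, over the 6 libraries, between a gene's mean-centred log2(value + 1) profile and the mean profile of Hbb-bh1, Hbb-y and Hba-x. Over all 17034 genes the median of this distance was 2.54. Among members that did not enter the mean profile, Hba-a1 was at 0.523, Hba-a2 at 0.804, Gata1 at 1.53, Alas2 at 1.64, Klf1 at 1.96 and Epor at 2.14. The nearest gene outside the members was Slc4a1 at 0.653, the anion exchanger band 3 of the red cell membrane. It was at 294, 270 and 0.79 normalized counts in the wild-type libraries and at 13.8, 396 and 37.8 in the knockout libraries. It was lowest in library 3 labelled wild type and highest in library 2 labelled knockout.

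Further red cell genes of the lists were among the nearest profiles. Gfi1b, a repressor needed for red cell and platelet formation, stood at 0.842, Kel, the Kell blood group protein, at 0.989, and Hbb-bs at 1.11. Hbb-bs was at 103, 118 and 0.79 normalized counts in the wild-type libraries and at 5.19, 139 and 3.70 in the knockout libraries. With 1 read each in library 3 labelled wild type, the ratio of the highest library to it was 504 (95% exact interval 90.1 to 19965) for Slc4a1 and 176 (95% exact interval 31.2 to 7014) for Hbb-bs. Of the nearest 10, 5 were in none of the lists: Pkhd1l1 at 1.16, Gfra3, a receptor of neurotrophic factors, at 1.19, the noncoding RNA Gm26035 at 1.19, Tubb1, the platelet beta tubulin, at 1.21, and the nuclear receptor gene Nr1h5 at 1.27. Gm26035 was at 227, 352 and 1.57 in the wild-type libraries and 265, 676 and 384 in the knockout libraries, so it matches the globins by its near absence from library 3 labelled wild type and not by the order of the others.

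**Figure D3:**
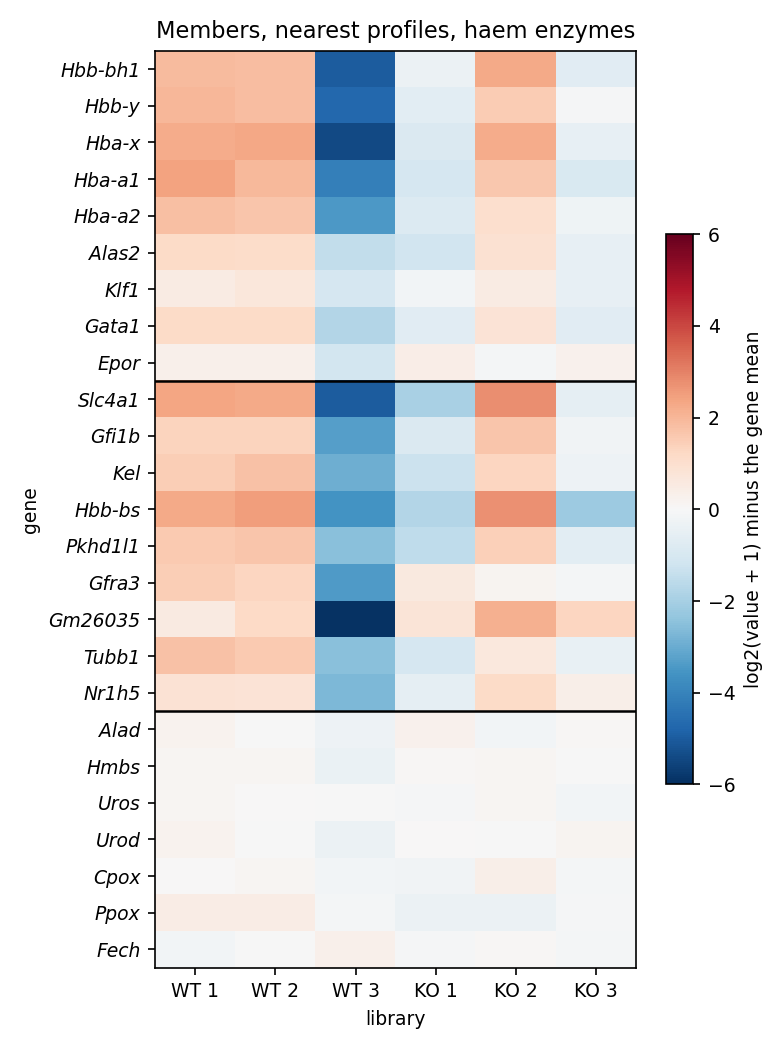
Heat map of log2(value + 1) minus each gene's mean over the 6 libraries (colour bar), for the 9 members, 9 of the 10 genes with the nearest profiles and 7 enzymes of haem synthesis, separated by black lines. The globins and Slc4a1 are blue in library 3 labelled wild type (WT 3) and red in WT 1, WT 2 and KO 2, while Epor and the haem enzymes are pale throughout.

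Markers of other cell types also differed between libraries, in part with the globins, and their part in the values above was not tested. The 12 macrophage markers summed to 929, 894 and 7125 normalized counts in wild-type libraries 1 to 3 and to 259.5, 4187 and 672 in knockout libraries 1 to 3. Of the 11 tested genes, 11 were lowest in library 1 labelled knockout, as were 22.9% of all genes. In library 3 labelled wild type 8 of 11 were highest, as were 25.5% of all genes. C1qa, a complement gene of macrophages, was at 0 in library 1 labelled knockout. Mrc1, the macrophage mannose receptor, was at 2242 in library 3 labelled wild type and 17.3 to 184 in the other 5. Library 3 labelled wild type, with the least globin, thus had the highest macrophage marker sum, and library 2 labelled knockout was high in both. No macrophage gene had a limma adjusted p under 0.05, with 0 of 11 at an unadjusted p under 0.05, against 0% and 14.2% of all genes.

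The 12 endothelial markers, of cells that arise beside blood in the yolk sac, summed to 15987, 15942 and 5184 normalized counts in the wild-type libraries and to 8839, 13952 and 13096 in the knockout libraries, with none at 0. Kdr, a vascular endothelial growth factor receptor of early mesoderm and endothelium, was at 11235, 11284 and 2518 and at 6886, 7771 and 9309. In 8 of 12 cases library 3 labelled wild type was lowest, as in 26.6% of all genes. The 10 cardiomyocyte markers summed to 27981, 26401 and 10131 in the wild-type libraries and to 13735, 24580 and 35432 in the knockout libraries. Both sums were thus low in library 3 labelled wild type and in library 1 labelled knockout. Library 3 labelled knockout had the highest cardiomyocyte sum with an intermediate globin level, and Ttn gave 17592 of that sum. Single markers went both ways. Myh6 and Myl7 were at 781 and 1427 there, below 1495 and 1957 in library 1 labelled wild type. Tnnt2 and Myh7 were highest in library 3 labelled knockout, at 2902 and 1779.

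The 12 endodermal markers summed to 8865, 8123 and 10757 normalized counts in the wild-type libraries and to 924, 8126 and 2528 in the knockout libraries. Apob, an apolipoprotein of yolk sac endoderm and liver, was at 4614, 4236 and 2293 and at 419, 4720 and 1220, and Rbp4, the retinol-binding protein gene, was at 614, 651 and 411 and at 46.7, 544 and 77.8. The libraries high in embryonic globin were high in both genes, and library 3 labelled wild type was not the lowest in either. Afp, alpha-fetoprotein, went another way, at 1490, 1429 and 7020 and at 70.9, 728 and 582, and gave most of the sum in library 3 labelled wild type. Trf was also highest in that library, and Foxa2 barely so, at 80.9 against 80.4 in library 2 labelled knockout. Thus 3 of the 11 tested genes were highest in library 3 labelled wild type and 2 lowest, against 25.5% and 26.6% of all genes. Of the list, Apoa4 was at 0 in library 3 labelled knockout. The 10 megakaryocyte markers summed to 1486 to 3324 over the 6 libraries, with Gp6 and Gp1bb at 0 in library 1 labelled knockout. The 8 fibroblast markers, which the feeder cells would also carry, summed to 373230 to 595980 in the wild-type libraries and to 176400 to 278760 in the knockout libraries, highest in library 3 labelled wild type. At an unadjusted p under 0.05 in limma, 4 of 8 tested megakaryocyte and 4 of 7 tested fibroblast genes were lower and 0 higher. Over all genes these shares were 7.23% and 6.92%. In both lists 0 genes had an adjusted p under 0.05.

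**Figure D4:**
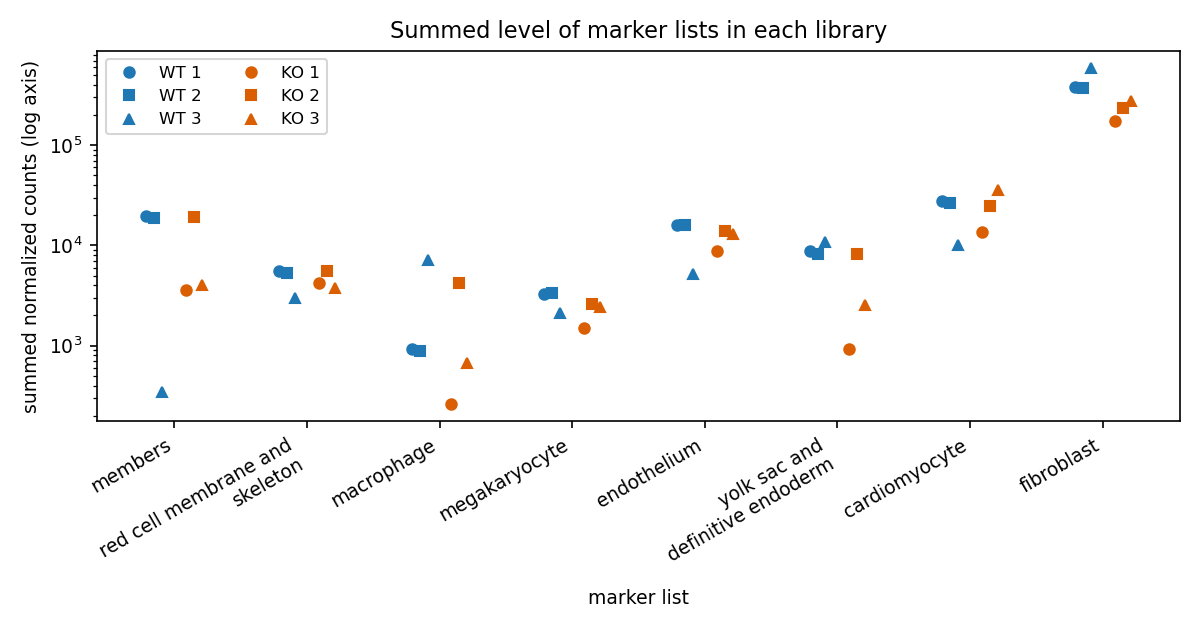
Summed normalized counts (log axis) of the 9 members and of 7 marker lists in each library, 1 point per library, with blue for libraries labelled wild type (WT) and orange for those labelled knockout (KO). Library 3 labelled wild type (blue triangle) is lowest for the members, at 345, and highest for macrophage markers, at 7125.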

How the data were processed

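RNA of 6 sorted samples was sequenced. The tools named per the submitters' processing notes are DESeq2 1.14.0, HTSeq, BWA and CASAVA 1.8.2, and the genome build is mm10; their roles are not stated. The deposited values are normalized counts, worked out from the values: whole reads divided by 1 factor per library, with 100% of values above 0 whole within 0.1 reads after division by the recovered step. Genes that reached 10 in 3 or more libraries (17034, all 9 members included) were fitted as log2(value + 1) with limma 3.58.1 in R 4.3.3 (1 term for the label, trended variance, two-sided tests, p adjusted by Benjamini-Hochberg over all genes), checked on simulated data. For weakly expressed genes such log2 differences depend on the constant added. That of Hba-a2 was -0.42 with 10 added, -0.02 with 1 and 0.24 with 0.5. Hba-a2 passed through the 3 libraries where it was highest. The planned edgeR, DESeq2 and TMM alternatives were not run, either on the deposited values or on the recovered reads. In their place, limma voom on the recovered reads was added after seeing the data. Intervals are exact (Clopper-Pearson, 95%). Gene positions are from GENCODE M21, which held 30484 of the 30631 IDs. Hbb-b1, Hbb-b2, Ahsp and Icam4 were not matched, and Erfe was matched by ID.

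The members, lists and rules were chosen with earlier results of these data known. Named beside the members were the up to 4 highest expressed genes of each red cell list, a few of the other lists, and the 10 nearest profiles. Other names are said to be chosen after their values were seen. Some results that this rule would name are not reported here.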

Additional observations from a re-analysis of the deposited data

How the results depend on the processing

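The count of genes called between labels was 0 in limma under 12 of 15 alternatives. It was 2 without the filter on low values, 51 without library 2 labelled knockout (0 to 51 over the 6 left-out libraries) and 606 with limma voom and sample quality weights, an alternative chosen after seeing the data. Plain voom on the recovered reads called 0, with 2277 genes at an unadjusted p under 0.05 against 2411 in the main analysis. Other red cell genes called lower numbered 0, but 2 (Bcl11a and Car2) without library 2 labelled knockout, a range of 0 to 2, and 3 (Bcl11a, Gypc and Ppox) with quality weights. None was called higher under any of the 15. The cause of these changes was not tested. With the Diff9 title number as a replicate block, 0 genes were called. The numbers in the titles repeat within the wild-type label and their meaning is not stated, so they were not taken as pairs, and the labelled groups share no other number. The differences of the members between labels changed sign in 0 to 7 of 15 alternatives (11 for Hba-a2, which failed the filter in the others), Alas2 in 0 and Hba-a1 in 7. They stayed within 1 SD of the main value in all of them, with the larger of the within-group SDs of log2(value + 1) as the SD. This SD is wide for the globins because library 3 labelled wild type was so low, so the limit says little about stability. Hbb-bh1 went from 0.83 to -1.71 within it. With the longest transcript as length, 6 of 9 members kept their place in every library. Without mitochondrial genes the members' share in library 3 labelled wild type was 14.96 of every 1000000 reads. edgeR, DESeq2 and TMM scaling were not run. Depth limits Hba-a2, Hba-a1, Gata1, Hba-x and Klf1 most, with 0, 3, 13, 17 and 18 reads in library 3 labelled wild type.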

Other observations

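Genes of other blood lineages followed the globins to differing degrees. Itga2b, the platelet and early blood progenitor integrin CD41, was at 1162, 1098 and 132 normalized counts in wild-type libraries 1 to 3 and at 119, 520 and 244 in knockout libraries 1 to 3. Gp9, a platelet glycoprotein gene, was at 59.75, 54.1 and 2.36 and at 3.46, 17.0 and 5.93, a profile at a distance of 1.48 from that of the embryonic globins, nearer than Gata1 or Alas2. Both were higher in libraries 1 and 2 labelled wild type than in library 2 labelled knockout, although embryonic globin was about equal in these 3. Pf4, the platelet factor, was at 539, 583 and 490 and at 15.6, 273.5 and 92.6, so it stayed high in library 3 labelled wild type, where globin was nearly absent. Ptprc, the leukocyte antigen CD45, was at 163, 158 and 525 and at 25.95, 1151 and 72.6. Spi1, a macrophage transcription factor, was at 33.2, 28.7 and 54.2 and at 0, 215 and 21.5. The labelled groups did not overlap for Pf4 (log2 difference -2.84, SE 0.88; adjusted p = 0.278 in limma) and overlapped for the other 4. These genes were chosen after their values were seen.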
